A study of Bos taurus with 16 samples.

Results

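SLC17A7, RIMBP2, RAB3IL1 and DGKG were followed in the prefrontal cortex (PFC) of cattle. They are 4 of the 27607 genes in the deposited transcript tables. These 4 genes were grouped by described roles in or near the release of glutamate at the presynaptic terminal. They were selected on their expression difference between the breeds, since their names come from the study's list of genes that differed in these same animals, so their Lidia against Wagyu values are given as a description, and calls of the fit over all genes are no evidence for them. Each symbol was paired with the gene whose chromosome, start and end match that list. The RNA of 16 non-castrated bulls was sequenced once per animal: 8 Lidia bulls, a breed selected for agonistic behavior and labelled aggressive, and 8 Wagyu bulls, selected for meat quality and docility and labelled non-aggressive. All bulls were 3 years old except 1 Lidia bull of 4 years. Of the Lidia bulls, 4 came from the La Quinta farm and 4 from Montealto, whereas the Wagyu bulls came from 1 further farm, Nuestro Buey. The Lidia bulls were sampled at the Plaza de Toros after a corrida and the Wagyu bulls at a slaughterhouse, and the breeds also differed in feeding. Breed, farm, diet and the circumstances of death cannot be told apart in these data.

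Excitatory neurons of the cortex release glutamate from synaptic vesicles. Vesicular glutamate transporters load the vesicles, the small GTPase Rab3 tethers them near the membrane, and scaffold proteins of the active zone hold calcium channels next to the vesicles that are ready to fuse. Diacylglycerol, a membrane lipid, primes vesicles for fusion, and diacylglycerol kinases remove it by phosphorylation. SLC17A7 encodes VGLUT1, the main vesicular glutamate transporter of cortical excitatory neurons. RIMBP2 encodes a RIM-binding protein that couples the active zone to calcium channels. RAB3IL1 encodes a guanine nucleotide exchange factor that acts on Rab3A. DGKG encodes the gamma type of diacylglycerol kinase, which binds calcium.

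Levels are given as FPKM, fragments scaled to the length of the transcript and to the mapped fragments of the library, summed over the transcripts of a gene and rescaled between animals by the median of ratios. The rescaling was needed because the deposited FPKM of Wagyu replicate 4 and Lidia replicate 4 were inflated, with scaling factors of 2.21 and 1.78 against 0.617 to 1.13 in the other animals. These 2 animals had 28.8% and 52.6% as many fragments as uniquely mapped reads, and the other 14 had 96.9% to 109%. The fragments per animal, estimated from coverage and FPKM, ranged from 7.67 M in Wagyu replicate 4 to 37.0 M (M, 10 to the power 6). In the 2 animals with inflated FPKM this estimate is no measure of sequencing depth. Of the other 14, Lidia replicate 6 had the fewest, 20.0 M. Lidia replicate 6 also stood apart: it had the highest summed level of oligodendrocyte and of endothelial markers of all 16 bulls. Results that rest on it are therefore given with and without it.

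SLC17A7 (ENSBTAG00000007036, chromosome 18, 55889117 to 55900355, minus strand, ARS-UCD1.2) was by far the most abundant of the 4 genes, its mean level being above that of 98.9% of the 16577 genes tested. It has 1 annotated transcript of 12 exons, which collected 3365 to 18353 estimated fragments per animal. Its scaled FPKM in the Lidia bulls was 96.7 at the lowest, 113.0 at the median and 146 at the highest. In the Wagyu bulls it was 110.0 at the lowest, 157 at the median and 181 at the highest. The breeds overlapped: 4 Lidia bulls were below all Wagyu bulls and 5 Wagyu bulls above all Lidia bulls, while the other 3 Wagyu bulls lay within the Lidia range. The mean was 117 ± 20.3 (SD, n = 8) in Lidia and 153 ± 23.5 (SD, n = 8) in Wagyu, a log2 difference of -0.39 ± 0.12 (standard error). In bulk tissue, fewer excitatory neurons in the piece sampled and less SLC17A7 RNA per neuron cannot be told apart.

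RIMBP2 (ENSBTAG00000009797, chromosome 17, 46406767 to 46715519, plus strand) was present at a few scaled FPKM and was lower in most Lidia bulls. Its scaled FPKM ran from 2.28 through a median of 3.86 to 4.42 in Lidia. In Wagyu it ran from 4.06 through a median of 5.20 to 6.27. Here 6 of the 8 Lidia bulls were below every Wagyu bull and 7 of the 8 Wagyu bulls above every Lidia bull, the overlap being due to 2 Lidia bulls and 1 Wagyu bull. The means were 3.69 ± 0.694 and 5.25 ± 0.734 (SD, n = 8 each), so that Lidia stood at 70.4% of Wagyu, with a log2 difference of -0.51 ± 0.12. The lowest value belonged to Lidia replicate 6, and without this bull the log2 difference was -0.42.

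RAB3IL1 (ENSBTAG00000015745, chromosome 29, 40417000 to 40438948, minus strand) went the other way. Its scaled FPKM in Lidia was 1.76 at the lowest, 3.02 at the median and 4.04 at the highest. In Wagyu it was 0.910 at the lowest, 1.26 at the median and 2.03 at the highest. Thus 6 Lidia bulls were above all Wagyu bulls and 7 Wagyu bulls below all Lidia bulls. The mean of 2.76 ± 0.785 in Lidia against 1.29 ± 0.387 in Wagyu (SD, n = 8 each) was a 2.06-fold difference on the fitted scale, or 1.04 ± 0.19 as log2. Its counts were the thinnest of the 4 genes, with 36.7 to 340.4 estimated fragments per animal. The median was 120 fragments, against 294 for DGKG. The fewest were in Wagyu replicate 4, whereas the other genes had their fewest in Lidia replicate 6.

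DGKG (ENSBTAG00000005091, chromosome 1, 80873608 to 81097089, plus strand) had the widest spread among Lidia bulls, with a coefficient of variation of 32.4%, against 17.4% for SLC17A7, 18.8% for RIMBP2 and 28.4% for RAB3IL1. This rested on Lidia replicate 6, without which it was 20.4% for DGKG and 16.9%, 10.9% and 30.8% for the others, so that RAB3IL1 had the widest spread. Its scaled FPKM in Lidia was 0.994 at the lowest, 2.76 at the median and 3.64 at the highest. In Wagyu it was 3.31 at the lowest, 4.44 at the median and 5.95 at the highest. In all, 6 Lidia bulls were below all Wagyu bulls and 5 Wagyu bulls above all Lidia bulls. The mean was 2.60 ± 0.841 in Lidia and 4.41 ± 0.977 in Wagyu (SD, n = 8 each), which places Lidia at 58.9% of Wagyu, with a log2 difference of -0.79 ± 0.21. The lowest bull was again Lidia replicate 6, with 36.9 estimated fragments on the gene, and without it the log2 difference was -0.62.

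**Figure D1:**
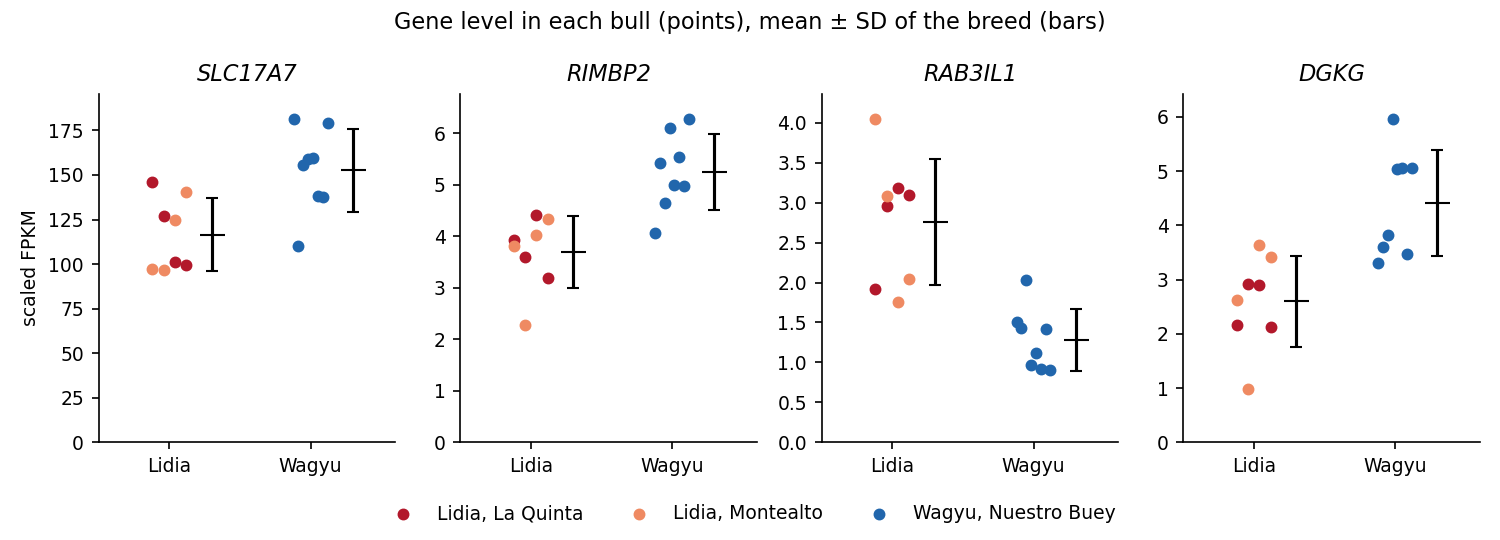
Scaled FPKM (y axis, linear from 0) of the 4 genes in each of the 8 Lidia bulls, coloured by farm, and the 8 Wagyu bulls. Bars give the mean ± SD of each breed. SLC17A7, RIMBP2 and DGKG sit lower and RAB3IL1 higher in Lidia, and in each panel at least 1 bull of one breed lies within the range of the other.

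The breeds overlapped for all 4 genes, so 0 of 4 were fully separated, a pattern that 0.706% of the 16577 genes tested showed. With limma on log2(scaled FPKM + 0.1) over all genes, calls required an adjusted p no higher than 0.05 together with a log2 difference of 0.1 or more in either direction. RAB3IL1 was called higher in Lidia and RIMBP2 and DGKG lower, that is 3 of the 4, beside 4.99% of all genes, 3.33% higher and 1.66% lower. SLC17A7 was not called. Since the same animals chose the genes, these calls are no independent test and nothing is read from them. On the FPKM as deposited, 0 of the 4 and 0 of all genes were called by limma, with 1022 genes at an unadjusted p under 0.05, although the log2 differences hardly moved. As deposited, these were -0.43 ± 0.25 for SLC17A7, -0.55 ± 0.29 for RIMBP2, 1.00 ± 0.27 for RAB3IL1 and -0.83 ± 0.35 for DGKG. The median of all genes lay at -0.01 on the scaled and -0.05 on the deposited values.

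The calls also hung on single animals. Leaving out 1 bull at a time left between 1 and 4 of the genes called. The count fell to 1 gene, RAB3IL1, without any one of Wagyu replicates 4, 5, 6, 7 or 8 or Lidia replicates 2, 4 or 5. It also fell to 1, again RAB3IL1, when both animals with few fragments were left out together. In every one of these settings the direction of each of the 4 genes was kept.

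RIMBP2 has 5 annotated transcripts that begin at 3 places. The first start has an exon of 758 bases (46406767 to 46407524) and serves 3 transcripts, the second an exon of 254 bases (46482150 to 46482403) and the third an exon of 194 bases (46584523 to 46584716), with 1 transcript each. Transcripts of the first start made up a mean of 70.2% of the summed FPKM of the gene in Lidia (64.8% to 75.0%, n = 8) and 71.0% in Wagyu (58.3% to 78.7%, n = 8). Those of the second start made up 17.3% ± 10.3 (SD) in Lidia and 15.9% ± 6.97 in Wagyu, and those of the third 12.5% ± 9.53 and 13.1% ± 11.8. The shares of the starts thus differed between breeds by less than the spread between bulls, and the mean level of each start was lower in Lidia. Transcripts of the first start stood at 70.0% of the Wagyu mean FPKM, those of the second at 72.6% and those of the third at 69.5%. An exon of 708 bases (46684442 to 46685149), present in 3 of the 5 transcripts, belonged to 30.2% ± 3.02 of the FPKM in Lidia and 29.4% ± 7.80 in Wagyu. Cufflinks divides fragments shared by overlapping transcripts by estimation, and the second and the third starts were near 0% in single bulls, so their shares are less certain than the level of the gene.

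In RAB3IL1, 1 of 5 transcripts carried nearly all of the level. It starts at an inner exon of 179 bases (40435360 to 40435538) and made up 93.3% of the FPKM or more in every Lidia bull and 90.9% or more in every Wagyu bull. The higher level in Lidia therefore lay in this transcript, whose mean scaled FPKM was 2.67 ± 0.761 in Lidia and 1.25 ± 0.361 in Wagyu (SD, n = 8 each). The 4 transcripts that start at the outer exon (40438493 to 40438948) reached at most 6.72% in a Lidia bull and 9.06% in a Wagyu bull.

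**Figure D2:**
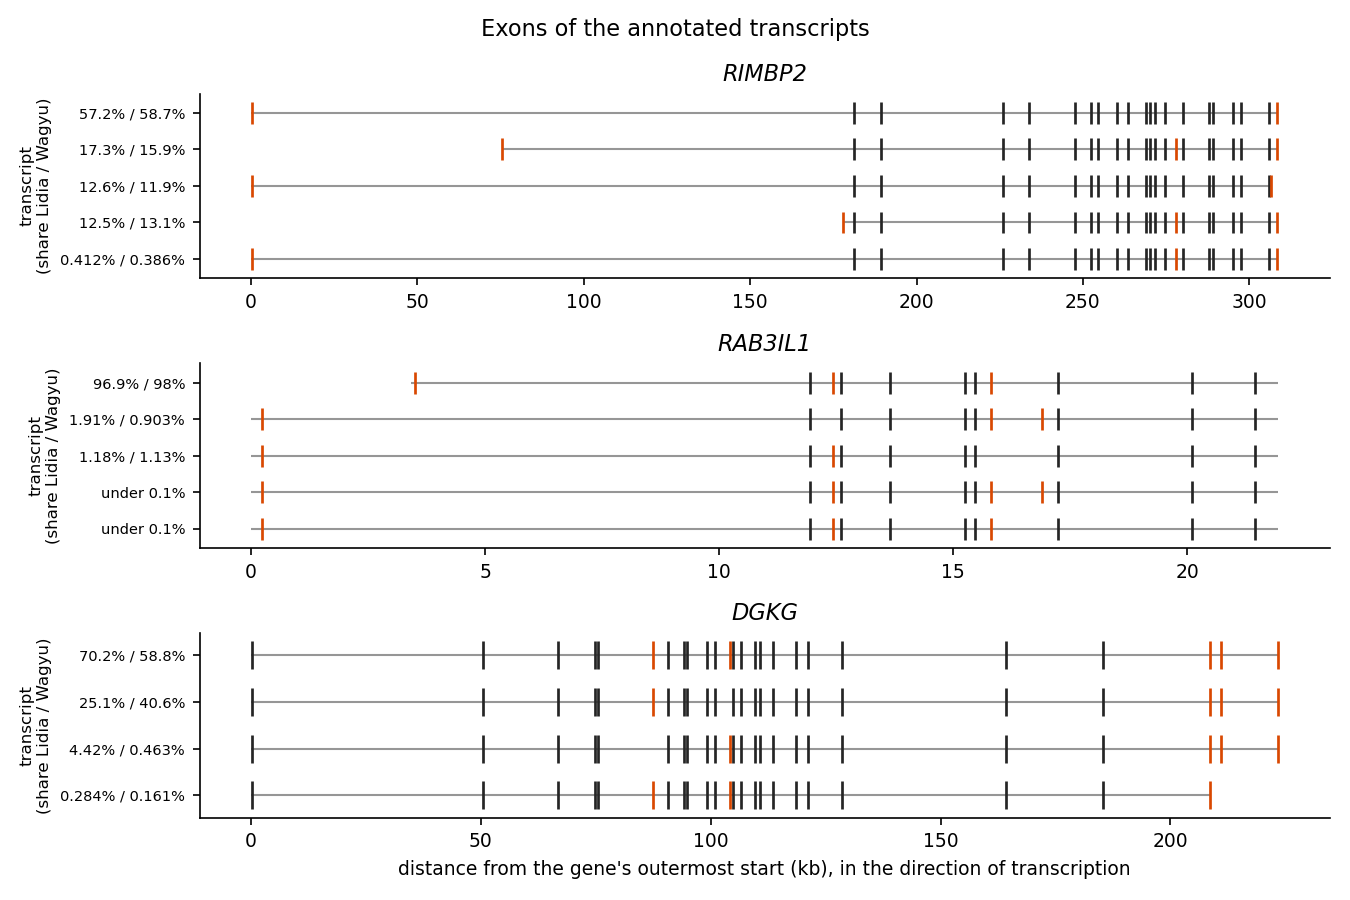
Exons of the annotated transcripts of RIMBP2, RAB3IL1 and DGKG, against the distance in kilobases from the outermost start of the gene, in the direction of transcription. Each tick marks the middle of an exon and not its width, black ticks are exons shared by all transcripts of the gene and orange ticks are not, and the labels give the mean share of the gene's FPKM in Lidia and Wagyu. Most of the RAB3IL1 level comes from the 1 transcript with the inner start, and RIMBP2 transcripts differ in the first exon, the last exon or the exon of 708 bases.

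In DGKG the transcripts behaved unequally. A cassette exon of 117 bases (80977789 to 80977905), whose length is a multiple of 3 bases, is present in 3 of its 4 transcripts and skipped in 1. The transcript without this exon had a scaled FPKM of 0.00213 at the lowest, 0.741 at the median and 1.17 at the highest in Lidia. In Wagyu it had 0.937 at the lowest, 1.71 at the median and 2.84 at the highest. For this transcript, 7 of 8 Lidia bulls were below all Wagyu bulls and 6 of 8 Wagyu bulls above all Lidia bulls. The mean was 0.637 ± 0.407 in Lidia and 1.80 ± 0.663 in Wagyu, so Lidia stood at 35.3% of Wagyu. The transcripts that include the exon had means of 1.96 ± 0.778 and 2.61 ± 0.644 (SD, n = 8 each), Lidia standing at 75.2% of Wagyu, with wide overlap.

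The share of DGKG without the cassette exon was accordingly 0.0624% at the lowest, 30.6% at the median and 35.4% at the highest in Lidia. It was 24.5% at the lowest, 44.2% at the median and 52.7% at the highest in Wagyu. The share means were 25.1% ± 12.1 and 40.6% ± 10.8 (SD, n = 8 each), and 5 Wagyu bulls had a larger share than any Lidia bull. The lowest share was that of Lidia replicate 8, the bull of 4 years, and the next that of Lidia replicate 1 with 13.2%. The transcript that skips the exon differs from the main one by this exon alone, and its deposited confidence interval spanned 11.5% to 391% of its value on either side, so a single bull's share is uncertain. No test was run on the shares, because they come from the contrast that chose the gene.

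**Figure D3:**
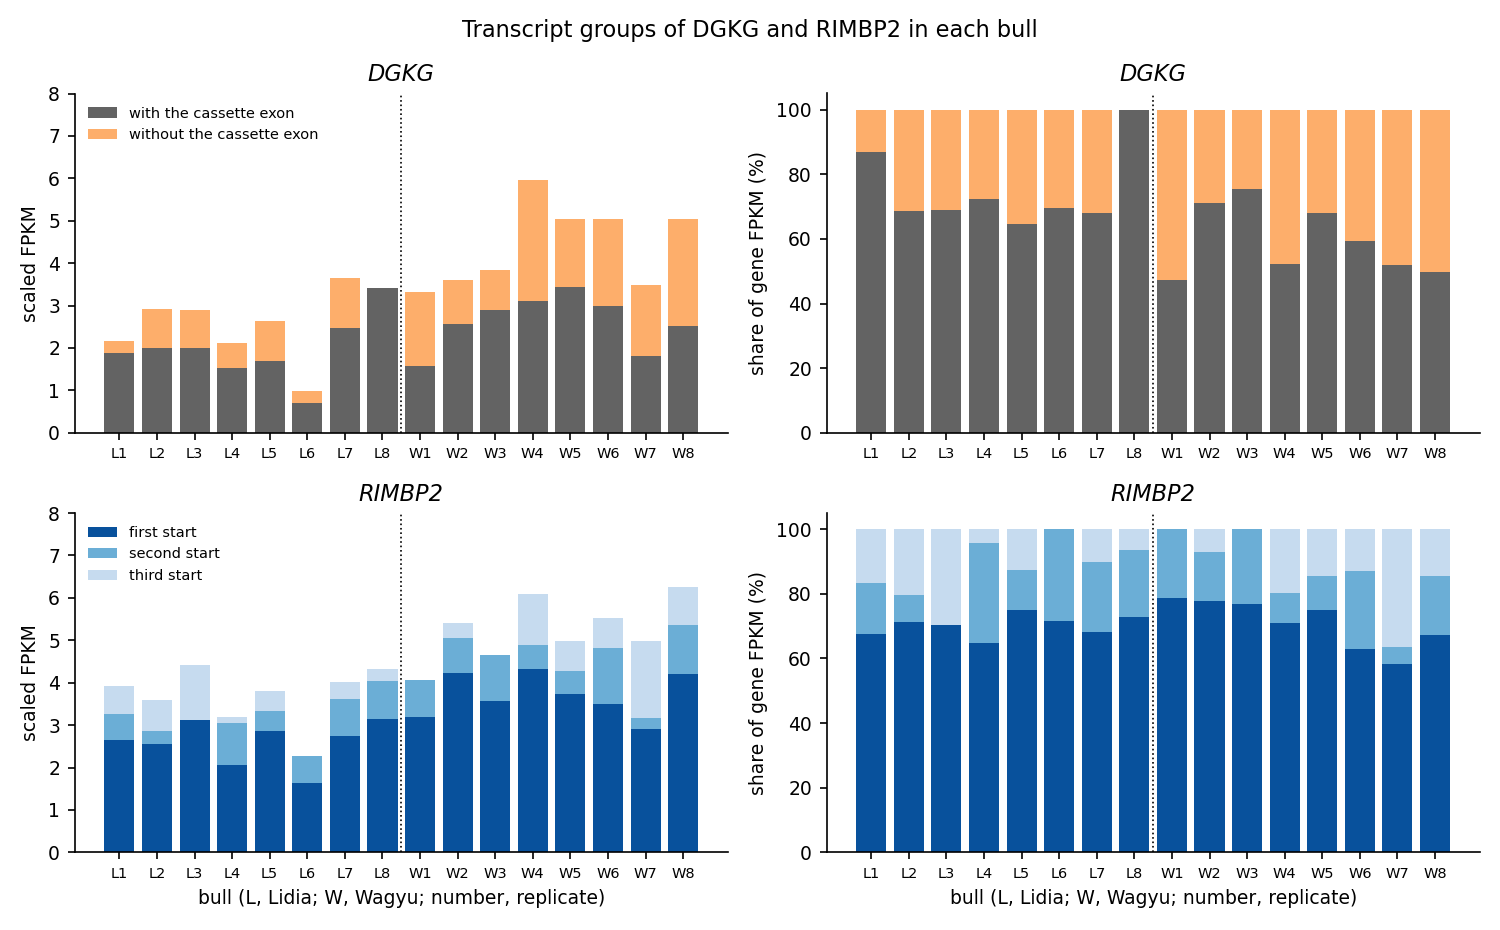
Scaled FPKM (left) and share of the summed FPKM of the gene in percent (right) of transcript groups of DGKG, with and without the cassette exon of 117 bases, and of RIMBP2, by the start they use. Each bar is 1 bull, L for Lidia and W for Wagyu with the replicate number. The part of DGKG without the exon is at most 35.4% of the gene in Lidia and reaches 52.7% in Wagyu, whereas the 3 starts of RIMBP2 vary from bull to bull within both breeds.

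The comparison of the Lidia farms had no part in choosing the genes and could be tested. No difference between La Quinta and Montealto was detectable in any of the 4 genes, all of which had ranges that overlapped widely. SLC17A7 had means of 118 ± 22.3 and 115 ± 21.4 scaled FPKM (SD, n = 4 each). RIMBP2 had 3.78 ± 0.523 and 3.61 ± 0.911, RAB3IL1 2.79 ± 0.588 and 2.73 ± 1.04, and DGKG ranged from 2.12 to 2.93 and from 0.994 to 3.64. The log2 differences, La Quinta minus Montealto, were 0.05 ± 0.18 for SLC17A7, 0.09 ± 0.18 for RIMBP2, 0.08 ± 0.27 for RAB3IL1 and 0.05 ± 0.31 for DGKG (standard error). Their adjusted p-values from limma over all genes were 0.969, 0.924, 0.967 and 0.982, and 0.0905% of all genes were called in this comparison. These p-values do not show that the farms were alike. Leaving out 1 Lidia bull at a time moved each of the 4 differences across 0, that of DGKG between -0.34, without Lidia replicate 6, and 0.25, without Lidia replicate 7.

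**Figure D4:**
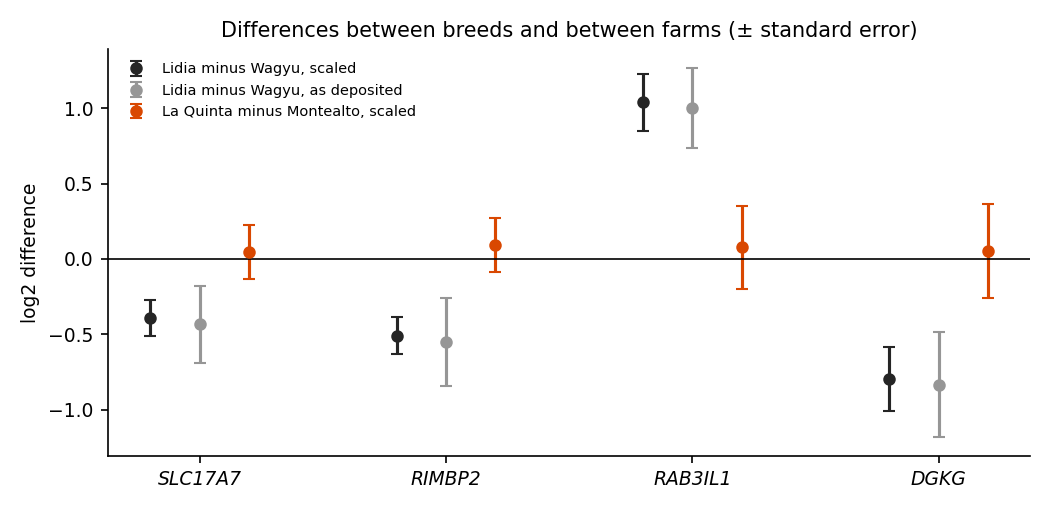
Log2 differences (y axis) of the 4 genes between breeds, on scaled and on deposited FPKM, and between the Lidia farms on scaled FPKM, with standard errors as bars. The breed differences run from -0.79 in DGKG to 1.04 in RAB3IL1 on the scaled values, and the farm differences lie between 0.05 and 0.09.

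Covariation among bulls of the same breed had no part in the choice either. In all, 68 correlations of log2(scaled FPKM + 0.1) were computed, for the 6 pairs of genes and for each gene with 7 lists of cell type markers, in each breed. With exact two-sided permutation tests over the 8 bulls, 13 had an unadjusted p under 0.05 and 1 passed after Benjamini-Hochberg adjustment. This was SLC17A7 with the excitatory neuron markers in Wagyu, r = 0.976 (permutation p = 0.000273, adjusted p = 0.0186) and rho = 0.952 (p = 0.00114, adjusted p = 0.0776). Only 2 of the 6 listed markers could be named, NEUROD2 and NEUROD6, transcription factors of excitatory cortical neurons, and both stand in the study's list of differing genes. Without the 2 bulls farthest from the median, r was 0.960 (adjusted p = 0.189, exact permutation over 6 bulls). In Lidia the same relation had r = 0.900 (exact permutation p = 0.00350, adjusted p = 0.0933) and rho = 0.762. There r was 0.716 without the 2 farthest bulls (exact permutation, adjusted p = 0.611). Without Lidia replicate 6, left out after its values had been seen, it was 0.944 (exact permutation, adjusted p = 0.0438 over 34 correlations). The other genes followed these markers less closely. In Lidia and Wagyu, r was 0.242 and 0.011 for RIMBP2, 0.132 and 0.418 for DGKG, and -0.672 and -0.247 for RAB3IL1. RIMBP2 had r = 0.462 and 0.699 with the inhibitory neuron markers, and SLC17A7 -0.745 and -0.793 with the endothelial markers. None of these passed the threshold after adjustment.

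Among the 3 genes lower in Lidia, SLC17A7 and DGKG had r = 0.464 in Lidia and 0.254 in Wagyu, and SLC17A7 and RIMBP2 0.494 and -0.152. RIMBP2 and DGKG had r = 0.909 in Lidia (exact permutation p = 0.00940, adjusted p = 0.160) and 0.745 in Wagyu (p = 0.0361, adjusted p = 0.189), and rho of 0.690 and 0.810. In Lidia this rested on replicate 6, the lowest bull for both genes: r was 0.608 without it and 0.323 without the 2 bulls farthest from the median. No difference between these correlations was tested. RAB3IL1 ran against the other 3 genes in both breeds, with r from -0.82 to -0.33 in Lidia and from -0.80 to -0.16 in Wagyu, none of them past the threshold after adjustment.

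No correlation of RAB3IL1 with a marker list passed the adjusted threshold over all 8 bulls. The largest positive ones in Lidia were with endothelial and meningeal markers, whereas r with the oligodendrocyte markers was 0.202 in Lidia and 0.422 in Wagyu, with the astrocyte markers 0.520 and 0.185, and with the microglial markers 0.349 and 0.534. With the endothelial markers CLDN5, VWF, KDR and CDH5 it had r = 0.767 in Lidia (exact permutation p = 0.0221, adjusted p = 0.173) and 0.545 in Wagyu (adjusted p = 0.462). With 8 markers of meningeal fibroblasts, among them DCN, LUM and COL1A1, it had r = 0.705 in Lidia (exact permutation p = 0.0680, adjusted p = 0.270) and 0.696 in Wagyu (adjusted p = 0.247). Without the 2 bulls farthest from the median of RAB3IL1, r was 0.568 in Lidia and 0.306 in Wagyu for the endothelial markers. For the meningeal markers it was 0.556 and 0.449. In these 6 bulls per breed, the largest positive r in Lidia was with the astrocyte markers, 0.870 against 0.223 in Wagyu. The largest positive r in Wagyu was with the oligodendrocyte markers, 0.690 against 0.015 in Lidia. With the excitatory markers r was -0.903 in Lidia and -0.271 in Wagyu. None of these passed the threshold after adjustment. Lidia replicate 6, low in meningeal and high in endothelial markers, stood off the meningeal relation. Without it r was 0.960 in Lidia (n = 7, exact permutation p = 0.00258, adjusted p = 0.0438 over 34 correlations). This bull was left out after its values had been seen, so that p-value is no independent test and nothing is read from it. Without this bull, r of RAB3IL1 with the endothelial markers in Lidia was 0.862. The meningeal markers also ran against SLC17A7 in Lidia, with r = -0.904 without this bull and -0.499 with it. Neither gene pair passed the threshold after adjustment. RIMBP2 ran against the oligodendrocyte markers in Wagyu, r = -0.859 (exact permutation p = 0.00412, adjusted p = 0.0933), but on the deposited FPKM r was 0.244.

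**Figure D5:**
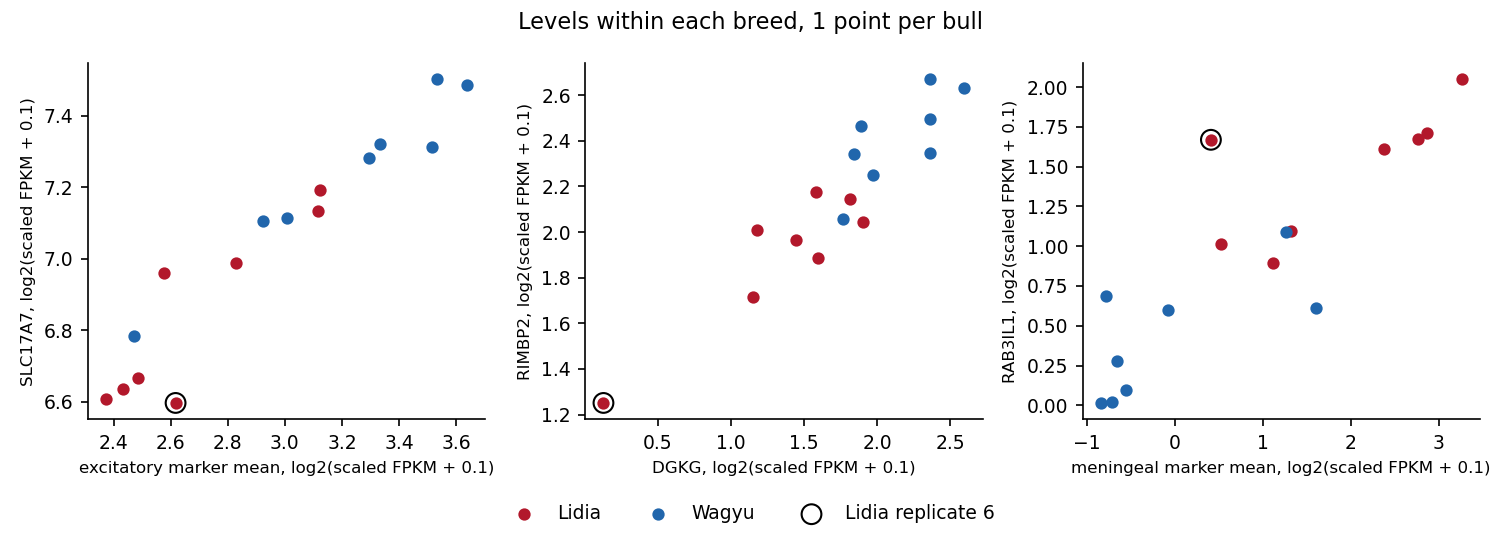
Levels as log2(scaled FPKM + 0.1), 1 point per bull, for SLC17A7 against the mean of NEUROD2 and NEUROD6, RIMBP2 against DGKG, and RAB3IL1 against the mean of 8 meningeal fibroblast markers. Pearson r is 0.900 in Lidia and 0.976 in Wagyu in the first panel, and Lidia replicate 6 (circled) is the lowest bull for both RIMBP2 and DGKG and lies apart from the other Lidia bulls in the third panel.

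The cell type markers moved with breed as well. The summed scaled FPKM of the 2 excitatory markers was 10.2 to 17.2 in Lidia and 11.1 to 24.7 in Wagyu, with 3 Lidia bulls below all Wagyu bulls. That of the endothelial markers, 4 of 5 named, was 26.0 to 104.6 in Lidia and 13.7 to 30.8 in Wagyu, with 6 Lidia bulls above all Wagyu bulls. That of the meningeal markers, 8 of 9 named, was 13.5 to 87.7 in Lidia and 5.13 to 26.6 in Wagyu, with 4 Lidia bulls above. That of the microglial markers CX3CR1, AIF1 and TMEM119, 3 of 5 named, was 13.2 to 26.1 in Lidia and 6.33 to 14.5 in Wagyu, with 6 Lidia bulls above. For oligodendrocytes, 6 of 11 named, the range was 114 to 362 in Lidia and 81.1 to 247 in Wagyu. For astrocytes, 3 of 6 named, it was 272 to 404 and 150 to 429. For inhibitory neurons, 2 of 6 named, it began at 4.91 and 6.11 and reached 22.7 in Wagyu, with medians of 8.33 and 13.1. In no list was a marker at 0 in all of the bulls. All nameable markers come from the study's list of genes that differ in these animals. The part of these markers in the breed differences of the 4 genes was not tested.

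Among 711 nameable genes with a mean scaled FPKM of at least 1, those most like each gene were ranked by Pearson r over the 16 bulls, each breed centred on its own mean. SLC17A7 was followed by NEUROD6 (r = 0.899), LDHA, a subunit of lactate dehydrogenase (0.875), and NOCT, nocturnin, a phosphatase with a daily rhythm (0.862), and 3 of the 11931 genes of that level, nameable or not, had a higher r with it than NEUROD6. RIMBP2 was most like SCN3B, a beta subunit of voltage-gated sodium channels (0.943), SMPD3, a neutral sphingomyelinase (0.923), and CDH12, a cadherin (0.922). Without Lidia replicate 6 these were 0.884, 0.833 and 0.838. RAB3IL1 was most like PGF, placental growth factor, a ligand of the VEGF family (0.953, with no gene of 11931 higher), HDAC1, a histone deacetylase (0.897), and PLAC9 (0.886). DGKG was most like KIAA0319 (0.960), JAZF1 (0.955) and PLPPR4, a membrane protein of excitatory synapses (0.954), or 0.949, 0.888 and 0.900 without Lidia replicate 6. For SLC17A7 the order turned without that bull, with 0.951 for LDHA, 0.896 for NEUROD6 and 0.849 for NOCT. These values are a description over bulls of unequal depth.

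Of 65 further genes of vesicle release and diacylglycerol phosphorylation, 6 could be named. All 6 could be named only because they stand in the study's list of genes that differ in these same animals, so neither their direction nor their calls are independent evidence. In the fit over all genes, 2 were called lower in Lidia and 1 higher, beside 1.66% and 3.33% of all genes, and the median log2 difference of the 6 was -0.49, against -0.01 over all genes tested. SYNPR, encoding the vesicle protein synaptoporin, was called lower, with means of 35.5 ± 5.31 scaled FPKM in Lidia and 49.3 ± 5.25 in Wagyu (SD, n = 8 each), a log2 difference of -0.48 ± 0.09 (standard error). SV2C, a vesicle glycoprotein, was called lower as well, at 0.831 ± 0.282 in Lidia and 1.51 ± 0.286 in Wagyu. RAB3D, the Rab3 form known best from secretory cells outside the brain, was called higher, at 6.72 ± 1.54 and 4.72 ± 0.556, but this call was lost in 10 of 16 fits with 1 bull left out, without a filter and in the exact rank-sum test.

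The other 3 were not called. RAB3B, a Rab3 form of neurons and endocrine cells, had 10.3 ± 3.74 scaled FPKM in Lidia and 14.1 ± 3.82 in Wagyu (log2 difference -0.51 ± 0.25). RAB3C and the active zone protein gene ERC2, whose loci each hold a second gene, had log2 differences of -0.53 ± 0.22 and -0.41 ± 0.19. Of the vesicular glutamate transporters, the fusion proteins, the calcium sensors and channels and the other diacylglycerol kinases listed, no gene could be named, so SLC17A7 and DGKG could not be set beside their closest relatives.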

How the data were processed

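RNA from the PFC of 16 bulls was made into libraries with the Illumina TruSeq stranded mRNA kit. According to the submitters' processing notes and the study's methods, the authors trimmed reads with PRINSEQ, mapped them with STAR 2.7.3a to ARS-UCD1.2, handled alignments with SAMtools 0.1.18 and estimated transcript abundance with Cufflinks 2.2.1. The strand setting is not given in the sources used here. The deposited values are FPKM and coverage per Ensembl transcript, 1 table per animal of 43984 transcripts, without counts and without scaling between animals. Cuffdiff was run afterwards, and of its output only the list of differing genes was used, for gene symbols and not for its fold changes or p-values.

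FPKM was summed per gene and divided by median-of-ratios factors over the 15998 genes above 0 in all animals. Log2(FPKM + 0.1) values, which understate the fold changes of low genes, were compared for the genes whose mean reached 0.1, with limma 3.58.1 in R 4.3.3 (trend, two-sided, Benjamini-Hochberg). Fragments were estimated from coverage, with 200 bases per fragment, and their precision covers counting error only. Correlations used scipy 1.17.1 and pandas 2.3.3 in Python 3.11.15.

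Breed was taken from the sample labels and farm from the study's sample table, and replicate numbers follow the order of the record. Each bull gave 1 library, so p-values rest on the spread between bulls, from which differences between libraries cannot be separated. Symbols came only from the study's list of differing genes, of whose 1197 entries 1048 were paired with 1 gene. The members, marker lists and pathway list were chosen with earlier results of these data known. Named were the 4 genes, the nameable pathway genes, and for each of the 4 the 3 nameable genes most like it. A gene was left out of these lists and is not reported here. No gene overlaps the 4 on either strand. The fits and rank tests were checked on simulated data.

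Alternatives were the deposited FPKM, upper-quartile scaling, pseudocounts of 1 and 0.01, a mean of at least 1 or no filter, array weights, a fit without variance trend, single farms, leaving out animals, and an exact rank-sum test.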

Additional observations from a re-analysis of the deposited data

Results flagged for a closer look

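Within each breed, the highest and the lowest of the 8 bulls were compared with the others for the level of each gene, for transcript shares of RIMBP2 and DGKG and for the 7 marker sums. A bull was noted where its gap to the nearest other bull took up more of the whole range than Dixon's critical value for 8 samples, which chance alone gives in about 5% of groups. Of 34 groups, 4 held such a bull, all in marker sums and none in a level of the 4 genes. The rule was applied to scaled FPKM and not to log2(scaled FPKM + 0.1), the scale of the fits. On that log2 scale DGKG was 0.129 in Lidia replicate 6, 1.15 in the next lowest Lidia bull, replicate 4, and 1.90 in the highest, replicate 7. The gap below replicate 4 was thus wider than the rest of the Lidia range. The absence of such a bull in the gene levels therefore holds for scaled FPKM only. The oligodendrocyte marker sum of Lidia replicate 6 was 361.6 scaled FPKM, against a median of 154.5 in the other Lidia bulls. Its endothelial marker sum was 104.6 scaled FPKM, against a median of 31.9. In the mean log2 of the endothelial markers, used for the correlations, this bull stood less apart, at 2.56 against 2.24 in Lidia replicate 5. In that of the oligodendrocyte markers it had 5.49 against 4.49 in Lidia replicate 7. The oligodendrocyte marker sum of Wagyu replicate 1 was 246.6 scaled FPKM, against a median of 104.4 in the other Wagyu bulls. The astrocyte marker sum of Wagyu replicate 2 was 429.3 scaled FPKM, against a median of 202.9. Of the 4 genes, Lidia replicate 6 had the lowest RIMBP2 and DGKG of all bulls, Wagyu replicate 1 the lowest RIMBP2 and DGKG of the Wagyu bulls, and Wagyu replicate 2 the lowest SLC17A7 of the Wagyu bulls. The part of these cell type markers in those levels was not tested.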

How the results depend on the processing

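The breed difference kept its direction for all 4 genes under every alternative run: the log2 difference ranged over settings other than single bulls from -0.48 to -0.35 for SLC17A7, -0.56 to -0.42 for RIMBP2 and -0.83 to -0.61 for DGKG, and was 0.71 or more for RAB3IL1. With 1 bull left out it ranged from -0.46 to -0.35 for SLC17A7, -0.56 to -0.42 for RIMBP2, 0.96 to 1.14 for RAB3IL1 and -0.87 to -0.62 for DGKG. The number of genes called did depend on the setting, and the cause was not tested. Against 827 genes (552 higher, 275 lower) there were 0 (0 and 0) on the deposited FPKM, 3088 (1706 and 1382) with array weights, 246 (150 and 96) without the animals with few fragments, 303 (176 and 127) with the La Quinta bulls only, and 53 (40 and 13) with the Montealto bulls only, each with 4 Lidia bulls. The exact rank-sum test called 650 (352 and 298). Leaving out 1 bull gave 362 (240 and 122), without Wagyu replicate 8, to 1454 (961 and 493), without Wagyu replicate 2. Of the 4 genes, 0 were called on the deposited FPKM, 1 without the animals with few fragments, 0 with Montealto only, and 1 to 4 with 1 bull left out. Of the pathway genes, those called lower numbered 0 on the deposited FPKM, 1 without the animals with few fragments, 0 with Montealto only and 2 whichever bull was left out, and those called higher numbered 0 in those 3 settings, 0 without a filter, 0 by the rank-sum test and 0 to 1 with 1 bull left out. The share of RIMBP2 from its first start, -0.76 percentage points in Lidia minus Wagyu, was 0.0248 without the animals with few fragments, both far within the spread between bulls. Between farms, 15 genes were called, 6 on the deposited FPKM, 8 with a mean of at least 1, 7 in the Lidia bulls alone and 7 to 12 with 1 bull left out. The farm differences ranged from -0.061 to 0.15 for SLC17A7, -0.11 to 0.19 for RIMBP2, -0.10 to 0.28 for RAB3IL1 and -0.34 to 0.25 for DGKG with 1 bull left out, and reached 0.38 to 0.44 on the deposited FPKM. Of the correlations, 1 passed, 0 without the 2 farthest bulls, where the smallest p that 6 bulls allow, 0.00139, adjusts to 0.0944 when it stands alone, 10 on the deposited FPKM and 0 without the animals with few fragments. RIMBP2 with oligodendrocyte markers in Wagyu turned to r = 0.244 on the deposited FPKM. No paired analysis was possible because the breeds are separate bulls from different farms, and replicate numbers only follow the order of the record. Without counts, the sampling error of a gene was not tested.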
